A study of Mus musculus with 49 samples.

Results

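The comparison described here sets intestinal crypts of DBZ-treated mice (SP_DBZ, labelled secretory progenitors) against crypts of Atoh1-deleted mice (EP, labelled enterocyte progenitors). Its members were chosen by their labels: SP_DBZ replicates 1 and 2 and EP replicates 1 and 2, that is 4 of the 25 RNA libraries and of the 49 samples in the series. SP_DBZ mice carried the floxed allele Atoh1 F/F, with no Cre in the label, and received DBZ (dibenzazepine, an inhibitor of the gamma-secretase that releases the active part of Notch receptors) at 48 mg/kg at the start and again at 12 hours. They were sacrificed at 38 hours. EP mice were Atoh1 F/F; Villin-CRE and received 1 mg of tamoxifen on 5 consecutive days, with sacrifice after 3 weeks. The Villin promoter drives Cre in the intestinal epithelium. Both groups had a mixed B6;129 background, and the labels used here give no age or sex. Both were unsorted crypts from the proximal small intestine, released in EDTA after the villi had been scraped away. The same SMART-Seq v4 kit was used for both. Drug, Cre, tamoxifen and interval all change with the group, and RNA of untreated crypts is not analysed here, so their parts in any difference below cannot be told apart. Unsorted crypts also hold several cell types, and fewer cells of a type and less RNA per cell cannot be told apart.

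In the crypt, a dividing progenitor chooses between absorptive and secretory fates through Notch. A cell that carries Delta ligands activates Notch receptors on its neighbours. There the receptor's inner part is released by gamma-secretase, joins Rbpj and switches on Hes1, which represses Atoh1. Cells that escape this signal keep Atoh1, a basic helix-loop-helix (bHLH) factor needed for goblet, Paneth and enteroendocrine cells and for the Delta ligands themselves, while cells without Atoh1 become enterocytes. DBZ blocks the step at gamma-secretase and deletion removes Atoh1, so the treatments are aimed at opposite sides of this choice.

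bHLH factors bind short sites called E-boxes, and CAGCTG, which reads the same on both strands, is the E-box form searched for here. It occurred in 16.3% of 32851 promoter windows of the RefSeq annotation GRCm38.p6, each running from 250 bases before to 50 after a start site. It also occurred in 25.5% of the 192 genes called higher in SP_DBZ that had a window (49 genes) and in 21.7% of the 60 called lower (13 genes), against 18.3% of the 11108 tested genes with a window. No test of these shares was made, and a match is a description, not a bound site. Among called members of lists described below, it occurred in 2 of 2 Notch ligands, 4 of 9 goblet products and 7 of 19 hormones and granins. It occurred in 2 of 9 endocrine factors, 1 of 6 secretory transcription factors and 1 of 9 Paneth products. The 4 stretches below were picked by hand among genes that hold the site. They are the 250 bases before the start of a Notch ligand, an endocrine factor and 2 goblet cell products that carry results further on. They run 5′ to 3′ on the gene's strand, with the E-box in capitals.
Dll3, chr7:28301786-28302035, minus strand: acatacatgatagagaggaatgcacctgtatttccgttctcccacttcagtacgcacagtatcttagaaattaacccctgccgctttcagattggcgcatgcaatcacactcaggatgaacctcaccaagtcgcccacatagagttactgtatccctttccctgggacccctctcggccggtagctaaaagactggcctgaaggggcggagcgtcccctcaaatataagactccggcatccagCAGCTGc
Neurog3, chr10:62132840-62133089, plus strand: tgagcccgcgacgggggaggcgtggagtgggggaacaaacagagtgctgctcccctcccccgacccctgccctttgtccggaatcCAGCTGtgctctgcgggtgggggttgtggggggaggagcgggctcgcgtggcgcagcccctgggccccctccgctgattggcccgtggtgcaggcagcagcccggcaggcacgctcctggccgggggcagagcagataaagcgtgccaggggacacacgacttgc
Fcgbp, chr7:28070986-28071235, plus strand: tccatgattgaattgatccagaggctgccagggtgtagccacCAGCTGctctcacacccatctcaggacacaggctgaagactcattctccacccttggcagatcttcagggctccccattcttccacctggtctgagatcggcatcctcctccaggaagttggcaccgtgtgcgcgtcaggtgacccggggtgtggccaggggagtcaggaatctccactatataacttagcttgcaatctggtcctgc
Muc2, chr7:141690090-141690339, plus strand: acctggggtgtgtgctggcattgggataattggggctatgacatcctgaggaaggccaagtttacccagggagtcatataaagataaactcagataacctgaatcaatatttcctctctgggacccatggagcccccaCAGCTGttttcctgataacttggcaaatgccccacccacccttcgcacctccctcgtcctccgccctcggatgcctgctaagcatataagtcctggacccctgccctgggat
The first base of the site lies 7 bases before the start site in Dll3, 112 in Muc2, 165 in Neurog3 and 208 in Fcgbp.

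The SP_DBZ libraries held 26426979 and 23022707 counts and the EP libraries 21601482 and 27371108. Levels are given below as TMM-scaled CPM, a gene's counts relative to the library total, for replicate 1 and replicate 2 in that order. Differences are log2 fold changes of SP_DBZ over EP with their standard error (SE). The p-values come from edgeR's quasi-likelihood test, adjusted by Benjamini-Hochberg over the 14837 genes tested. A gene was called when that adjusted p was below 0.05. By this rule 365 genes (2.46%) were called, 280 higher in SP_DBZ (1.89%) and 85 lower (0.573%), and 345 of them (2.33%) differed by at least 1 on the log2 scale. The median over all genes tested was -0.01. The libraries of the groups did not overlap for 41.9% of tested genes, so a lack of overlap alone separates little with 2 libraries a group.

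The SP_DBZ libraries stood apart from each other. Across genes the SD of the log2 difference between replicates was 0.73 in SP_DBZ and 0.54 in EP. SP_DBZ replicate 1 was the higher one for 22 of 24 Paneth products (median replicate difference 1.80 on the log2 scale), 39 of 40 DNA replication genes and 25 of 30 stem cell genes. Replicate 2 was the higher one for 18 of 19 secretory transcription factors, 18 of 20 endocrine factors and 19 of 21 brush border hydrolases. Of the genes called higher, 100 of 280 differed by more than 2-fold between the SP_DBZ libraries. Leaving out 1 library in turn moved the value of 193 of the 365 called genes by more than 1.5-fold in at least 1 of the 4 cases. Results that turn on one library are given with and without it, and a value beside a left-out library is the log2 fold change that remained. Xist was at 0 and 0.203 CPM in SP_DBZ and 0.0401 and 0.0635 CPM in EP, and the Y-linked gene Ddx3y at 55.5 and 38.9 CPM in SP_DBZ and 47.8 and 41.3 CPM in EP, so no sex difference between libraries was seen.

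Atoh1, the gene deleted in EP (chromosome 6, 64729125 to 64731245, GRCm38.p6), had 60.9 and 125 CPM in SP_DBZ crypts, against 1.56 and 1.81 CPM in EP crypts. All 4 libraries thus sat on the side that their Atoh1 genotype gives. Crypts that keep Atoh1 differ from EP here with or without the drug, so these values do not check the response to DBZ. The log2 fold change was 5.77 ± 0.40 (SE) (adjusted p = 6.4e-08), at the lowest adjusted p of the comparison together with 4 goblet genes, and ranged over 5.16 to 6.25 with 1 library left out. The 39 and 57 counts left in EP are above 0, and whether they come from undeleted cells or from transcript outside the deleted part was not tested.

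**Figure D1:**
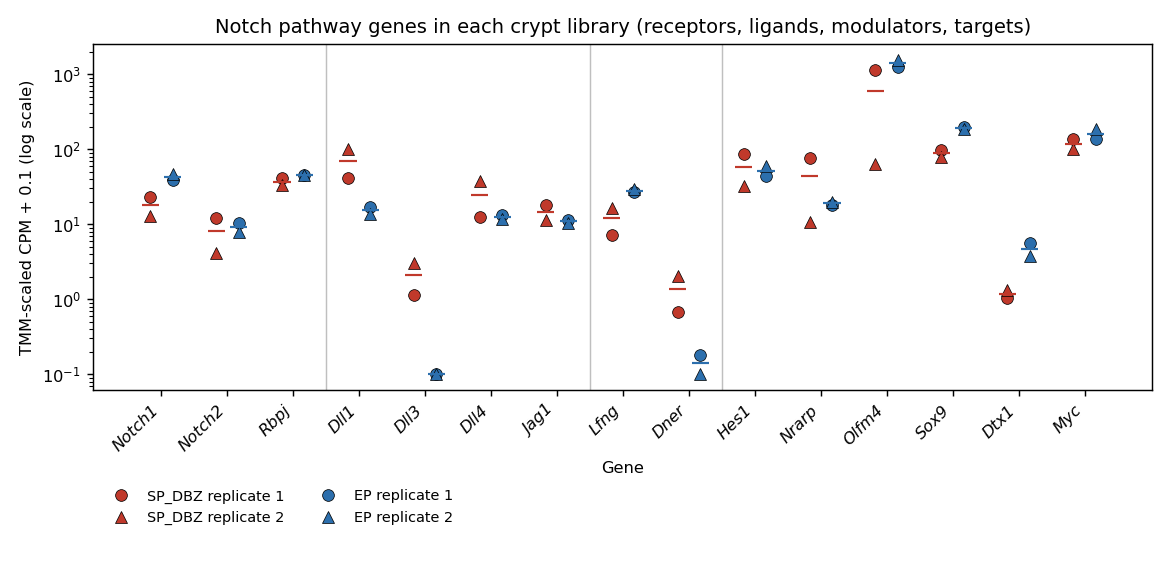
TMM-scaled CPM + 0.1 on a log axis for 15 Notch pathway genes in the SP_DBZ libraries (red) and the EP libraries (blue), with circles for replicate 1, triangles for replicate 2 and bars for the group mean. Dll1 and Dll3 lie higher in both SP_DBZ libraries, Notch1 and Lfng lie lower, and the SP_DBZ libraries spread apart at Nrarp and Olfm4.

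Among the Notch ligands, 2 of 5 were called higher and 0 lower. Dll1, the Delta ligand of secretory precursors (chromosome 17, 15367354 to 15376932), had 41.5 and 99.8 CPM in SP_DBZ, against 17.1 and 13.6 CPM in EP, a log2 fold change of 2.20 ± 0.32 (SE) (adjusted p = 0.00029). Dll3, a divergent Delta protein that is thought to act mainly inside its own cell, gave 31 and 73 counts in SP_DBZ and 0 and 0 in EP. Set against a floor of 3 counts over the EP group, that is at least 36.1-fold higher in SP_DBZ (adjusted p = 0.00034). Dll4, which supports stem cells together with Dll1, was not called at 12.4 and 37.2 CPM in SP_DBZ and 13.1 and 11.5 CPM in EP (adjusted p = 0.45); only SP_DBZ replicate 2 was above EP. The Jagged ligands were not called either, with Jag1 at 17.8 and 11.4 CPM in SP_DBZ and 11.4 and 10.2 CPM in EP and Jag2 at 1.89 and 2.48 CPM in SP_DBZ and 3.97 and 2.86 CPM in EP. Both ligand calls held when any single library was left out (Dll1 1.44 to 2.76), and both were lost when the spread was estimated from these 4 libraries alone (Dll1 log2 fold change 2.22).

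Of 8 receptors and nuclear partners, 1 fell and 0 rose. Notch1, the main receptor of crypt cells together with Notch2 (chromosome 2, 26457902 to 26503822), had 23.3 and 12.8 CPM in SP_DBZ, against 38.9 and 46.6 CPM in EP (-1.25 ± 0.31 SE on the log2 scale, adjusted p = 0.038). Notch2 overlapped between groups at 12.2 and 4.06 CPM in SP_DBZ and 10.4 and 7.78 CPM in EP. Rbpj, the DNA-binding partner of the released receptor, had 40.9 and 32.98 CPM in SP_DBZ and 44.9 and 45.4 CPM in EP and was not called. The Notch1 call was lost with secretory products left out of the scaling (-1.21, adjusted p = 0.053), with the 4 compared libraries alone (-1.24), without SP_DBZ replicate 2 (-0.88), without EP replicate 1 (-1.35) or without EP replicate 2 (-1.07). It was also lost with the SMART-Seq libraries alone and with the 6 unsorted crypt libraries alone (SP_DBZ, EP and the Rbpj-deleted group).

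Among 18 genes that process or modulate the pathway, 1 rose and 1 fell. Lfng, the Fringe sugar transferase that tunes which ligand a receptor answers to, had 7.20 and 16.5 CPM in SP_DBZ, against 26.7 and 29.1 CPM in EP (log2 fold change -1.23 ± 0.32 SE, adjusted p = 0.047). Dner, a Delta-related protein best known from neurons, gave 17 and 48 counts in SP_DBZ and 2 and 0 in EP, a ratio of 33.8 with a 95% counting interval of 9.0 to 285, which covers counting error only (adjusted p = 0.03). Both calls sit close to the threshold: Lfng lost it under each of the 3 other scalings (-1.22 to -1.19, adjusted p = 0.058 to 0.066). It was also lost without SP_DBZ replicate 1 (-0.70) or either EP library (-1.26 and -1.12), and Dner lost its call without SP_DBZ replicate 2 (3.77) or either EP library (7.62 and 3.90). The 7.62 for Dner was fitted against 0 counts in the remaining EP library, so its size is not measured. Both the Lfng and the Dner call were lost with the 4 compared libraries alone and with the 6 unsorted crypt libraries alone. With the SMART-Seq libraries alone Lfng lost its call. No gamma-secretase subunit, the target of DBZ, was called. Ncstn, the subunit that holds the substrate, had 184 and 177 CPM in SP_DBZ and 220.0 and 168 CPM in EP.

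None of the 14 tested Notch target genes was called by edgeR, with 2 higher and 3 lower at an unadjusted p below 0.05, and DESeq2 called 1 (Sox9, lower). Their median log2 fold change was 0.003, beside -0.01 over all genes. Hes1, the repressor of Atoh1 (chromosome 16, 30065357 to 30067796), had 85.1 and 31.9 CPM in SP_DBZ and 44.3 and 59.6 CPM in EP, so the SP_DBZ libraries lay on either side of both EP libraries (log2 fold change 0.17 ± 0.40 SE, adjusted p = 0.97). Nrarp, a feedback inhibitor of Notch, split in the same way at 77.5 and 10.5 CPM in SP_DBZ and 18.2 and 19.6 CPM in EP. Olfm4, a stem cell secreted protein that falls when Notch is blocked (chromosome 14, 80000302 to 80023141), had 1135 and 62.8 CPM in SP_DBZ and 1268 and 1563 CPM in EP. SP_DBZ replicate 1 was thus close to EP for Olfm4, while replicate 2 held far less. Without SP_DBZ replicate 1 the log2 fold change of Olfm4 was -4.44 and the gene was called. Without SP_DBZ replicate 2 it was -0.32, and Nrarp was called higher instead at 2.04. Hes1 stood at -0.65 without replicate 1 and at 0.71 without replicate 2, and was called in neither. Sox9, a transcription factor of crypt base and Paneth cells, had 96.3 and 79.4 CPM in SP_DBZ and 201 and 187 CPM in EP with no overlap and missed the threshold (log2 fold change -1.14 ± 0.35 SE, adjusted p = 0.11).

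**Figure D2:**
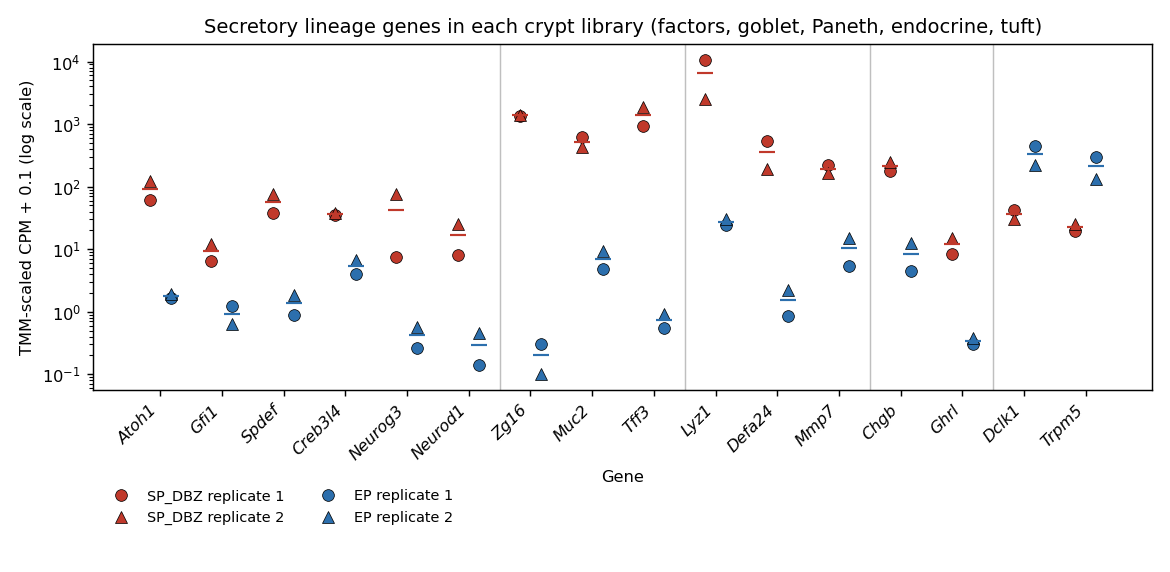
TMM-scaled CPM + 0.1 on a log axis for 16 genes of the secretory lineages in the SP_DBZ libraries (red) and the EP libraries (blue), with circles for replicate 1, triangles for replicate 2 and bars for the group mean. Factors, goblet, Paneth and endocrine genes lie higher in both SP_DBZ libraries, while the tuft genes Dclk1 and Trpm5 lie higher in both EP libraries.

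Of 19 transcription factors of the secretory lineages, 8 rose in SP_DBZ and 0 fell. Spdef, which matures goblet and Paneth cells, had 38.3 and 76.8 CPM in SP_DBZ, against 0.802 and 1.78 CPM in EP (log2 fold change 5.45 ± 0.47 SE, adjusted p = 7.7e-07). Gfi1, which holds precursors on the goblet and Paneth side, had 6.42 and 12.1 CPM in SP_DBZ, against 1.12 and 0.540 CPM in EP (log2 fold change 3.48 ± 0.61 SE, adjusted p = 0.0021), a call lost without EP replicate 2 (3.08). Factors that build the secretory apparatus rose as well: Bhlha15 (Mist1) had 20.04 and 31.4 CPM in SP_DBZ and 0.321 and 0.794 CPM in EP. Creb3l4 had 35.4 and 38.5 CPM in SP_DBZ and 3.93 and 6.55 CPM in EP. Creb3l1 had 49.9 and 100.2 CPM in SP_DBZ and 11.8 and 16.4 CPM in EP. Not every factor of the list moved. Elf3, an epithelial factor also used by enterocytes and the most abundant member that was not called, had 626 and 449 CPM in SP_DBZ and 778 and 742 CPM in EP. Sox4 had 57.1 and 126 CPM in SP_DBZ and 123 and 131 CPM in EP. A list of 16 secretory precursor genes, which shares Atoh1, Neurog3, Gfi1 and the Delta ligands with other lists, had 7 called higher and 0 lower. Its member Cbfa2t3, a transcriptional corepressor, rose to 10.1 and 31.1 CPM in SP_DBZ, against 0.681 and 1.27 CPM in EP (adjusted p = 3.9e-05). Cd24a, a surface marker of precursor, Paneth and tuft cells, lay the other way at 354 and 314 CPM in SP_DBZ and 980.2 and 683 CPM in EP and was not called (adjusted p = 0.068).

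Goblet cell products gave some of the largest differences of the comparison: 16 of 20 tested members were called higher and 0 lower, with a median log2 fold change of 6.01. Fcgbp, a large mucus protein, had 1451 and 1854 CPM in SP_DBZ, against 0.762 and 0.254 CPM in EP (log2 fold change 11.70 ± 0.80 SE, adjusted p = 6.4e-08). Tff3, the trefoil peptide of mucus, had 922 and 1873 CPM in SP_DBZ, against 0.441 and 0.826 CPM in EP (log2 fold change 11.07 ± 0.78 SE). Muc2, the gel-forming mucin itself, was less extreme at 624 and 428 CPM in SP_DBZ and 4.65 and 9.31 CPM in EP (log2 fold change 6.23 ± 0.44 SE, adjusted p = 6.4e-08), with 116 and 293 counts in EP. The mucus lectin Zg16 (chromosome 7, 127050156 to 127052675) had 1359.9 and 1406 CPM in SP_DBZ and 5 and 0 counts in EP, the largest fitted difference among called genes (log2 fold change 13.81 ± 1.26 SE). Agr2, the disulfide isomerase that folds mucin, had 1392 and 2260.0 CPM in SP_DBZ and 20.6 and 45.2 CPM in EP. The chemokine Ccl6 had 413 and 254 CPM in SP_DBZ and 2.20 and 4.48 CPM in EP. Rep15, a Rab15 effector, gave 1248 and 1699 counts in SP_DBZ and 0 and 3 in EP, a ratio of 1022 (counting interval 350 to 4961). The most abundant member that was not called was Muc13, a membrane mucin that enterocytes also make, at 769 and 751 CPM in SP_DBZ and 624 and 532 CPM in EP. The list took 1.33% and 1.29% of the SP_DBZ libraries and 0.0896% and 0.0861% of the EP libraries, and 15 or 16 members were called whichever library was left out. With 1 library left out the log2 fold change ranged over 12.75 to 17.72 for Zg16, 11.11 to 12.66 for Fcgbp, 10.47 to 11.66 for Tff3 and 5.85 to 6.86 for Muc2. The 17.72 for Zg16 was fitted against 0 counts in the remaining EP library, so its size is not measured.

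Enzymes that put sugars on mucins changed in fewer cases, with 5 of 25 called higher and 1 lower. Galnt5 and Galnt12, which start O-glycan chains, had 7.00 and 6.13 CPM and 94.2 and 132 CPM in SP_DBZ, against 0.241 and 0.318 CPM and 30.4 and 39.7 CPM in EP. The sulfotransferases Chst4 (log2 fold change 3.03 ± 0.44 SE) and Gal3st2 (log2 fold change 1.90 ± 0.29 SE) rose with them. Fut2, the fucosyltransferase of secretor status, fell to 2.06 and 1.02 CPM in SP_DBZ, against 31.2 and 13.2 CPM in EP (log2 fold change -3.83 ± 0.96 SE, adjusted p = 0.038), a call that was lost when any one of the 4 libraries was left out (-4.38 to -3.06).

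Paneth cell products rose in 17 of 24 tested members and fell in 0, with a median log2 fold change of 7.20, or 6.85 with the gene absent from EP set at its bound. Lyz1, the lysozyme of Paneth granules (chromosome 10, 117287795 to 117292868), had 10724 and 2501 CPM in SP_DBZ, against 23.9 and 30.6 CPM in EP (log2 fold change 7.92 ± 0.63 SE, adjusted p = 3.5e-07). Mmp7, the protease that activates defensins, had 220.1 and 167 CPM in SP_DBZ, against 5.33 and 15.1 CPM in EP (log2 fold change 4.24 ± 0.54 SE). Ang4, a microbicidal ribonuclease, had 1899.9 and 296 CPM in SP_DBZ, against 3.29 and 8.80 CPM in EP. SP_DBZ replicate 1 was several-fold above replicate 2 for Lyz1 and Ang4, yet both libraries lay far above EP. The alpha-defensins, the antimicrobial peptides of these cells, behaved likewise: Defa24 had 534 and 194 CPM in SP_DBZ, against 0.762 and 2.13 CPM in EP. Defa17 had 226 and 88.7 CPM in SP_DBZ, against 0.401 and 0.604 CPM in EP. Defensin genes are near-identical copies and reads can be split between them, so single defensin values are uncertain. The fitted log2 fold changes were 10.58 for Defa21 and 10.23 for Defa22, and both calls were lost without EP replicate 1 (10.05 and 9.52). The lectin Mptx1 gave 221 and 103 counts in SP_DBZ and 0 and 0 in EP, at least 112-fold higher, and lost its call without either EP library. The list took 3.13% and 1.06% of the SP_DBZ libraries and 0.263% and 0.392% of the EP libraries. Much of the EP share came from a member that enterocytes also make, Lgals2, at 2516 and 2755 CPM in SP_DBZ and 1888 and 2739 CPM in EP. Without EP replicate 1, the call count fell to 11 of 24. With 1 library left out the log2 fold change ranged over 6.57 to 8.62 for Lyz1, 5.66 to 8.41 for Ang4 and 3.71 to 5.22 for Mmp7.

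A list of 14 Reg proteins and other secreted defence genes had 3 called higher and 1 lower. Itln1, the intelectin of Paneth and goblet cells, had 4988 and 1430.1 CPM in SP_DBZ, against 21.9 and 67.3 CPM in EP (log2 fold change 6.17 ± 0.64 SE, adjusted p = 7.7e-06). Reg4, a marker of deep secretory cells, had 286 and 204 CPM in SP_DBZ, against 9.34 and 12.04 CPM in EP (log2 fold change 4.52 ± 0.68 SE). Reg3a rose too, with 56.9 and 104 CPM in SP_DBZ, against 2.12 and 5.53 CPM in EP, but not without EP replicate 1 (3.90). Duoxa2, the maturation factor of the peroxide-making Duox2, fell to 42.4 and 11.8 CPM in SP_DBZ, against 315 and 199 CPM in EP (log2 fold change -3.24 ± 0.80 SE, adjusted p = 0.035), and lost its call without SP_DBZ replicate 2 (-2.60) or without either EP library (-2.86 and -3.50).

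Of 39 genes of protein folding, translocation and the unfolded protein response in the endoplasmic reticulum, 3 were called higher and 0 lower. Ern2, the stress sensor IRE1-beta of mucus-making cells, had 54.6 and 71.6 CPM in SP_DBZ, against 6.85 and 8.83 CPM in EP (log2 fold change 3.01 ± 0.44 SE, adjusted p = 0.00033). Pdia5, a disulfide isomerase, had 61.01 and 90.7 CPM in SP_DBZ, against 17.4 and 23.6 CPM in EP. Edem1, which sends misfolded glycoproteins to degradation, had 153 and 160.4 CPM in SP_DBZ, against 93.5 and 84.96 CPM in EP. Most other members lay slightly above EP without passing the test: 35 of 39 had both SP_DBZ libraries above both EP libraries, and the list median was 0.54. Over all tested genes, 41.9% lacked overlap in either direction. P4hb, the most abundant uncalled member, had 1852 and 3323 CPM in SP_DBZ and 1495 and 1394 CPM in EP (adjusted p = 0.11). The count moved with 1 library, to 9 called without SP_DBZ replicate 1 and to 1 without EP replicate 1, and DESeq2 called 10. Edem1 lost its call without SP_DBZ replicate 2 (0.78) or either EP library (0.91 and 0.78), and Pdia5 without EP replicate 1 (1.72).

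Of 20 transcription factors of the enteroendocrine lineage, 12 rose and 0 fell, with a median log2 fold change of 5.85, or 5.01 with the 3 members at 0 in a group set at their bound. Neurog3, the factor that commits precursors to this lineage, had 7.54 and 76.2 CPM in SP_DBZ, against 0.160 and 0.477 CPM in EP (log2 fold change 6.96 ± 0.98 SE, adjusted p = 0.00024), with most of it in replicate 2. Neurod1, which follows Neurog3, had 8.11 and 25.6 CPM in SP_DBZ, against 0.0401 and 0.350 CPM in EP (log2 fold change 6.29 ± 0.75 SE). Insm1, a transcriptional repressor needed for endocrine differentiation, had 5.31 and 26.5 CPM in SP_DBZ, against 0 and 0.191 CPM in EP (log2 fold change 7.16 ± 0.82 SE). The SP_DBZ libraries thus differed several-fold in the early factors but each exceeded both EP libraries. With 1 library left out the log2 fold change ranged over 4.49 to 8.03 for Neurog3, 5.24 to 8.54 for Neurod1 and 5.58 to 11.26 for Insm1, and the Neurog3 call was lost with the 4 compared libraries alone (6.99). The 11.26 for Insm1 was fitted against 0 counts in the remaining EP library, so its size is not measured. Isl1, a factor of hormone cells, was even between replicates, with 127 and 125 counts in SP_DBZ and 0 and 2 in EP, a ratio of 131 (counting interval 35.9 to 1089). Neurod2 gave 7 and 88 counts in SP_DBZ and 0 and 0 in EP, at least 33.0-fold higher. Its call was lost without SP_DBZ replicate 2 or without either EP library. For Nkx2-2, which specifies hormone cells, the ratio was 322 (counting interval 57.3 to 12744).

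Hormones and granule proteins followed, with 19 of 22 called higher and 0 lower and a median log2 fold change of 3.89. Ghrl, the precursor of ghrelin, had 8.42 and 15.2 CPM in SP_DBZ, against 0.200 and 0.286 CPM in EP (log2 fold change 5.54 ± 0.59 SE, adjusted p = 1.0e-05). Chgb, a granule core protein, had 179 and 244 CPM in SP_DBZ, against 4.37 and 12.3 CPM in EP (log2 fold change 4.66 ± 0.56 SE, adjusted p = 3.6e-05). Hormones of several enteroendocrine subtypes were among the called genes, including Gcg at 56.01 and 58.9 CPM in SP_DBZ and 3.13 and 5.24 CPM in EP, Sst at 16.97 and 29.2 CPM in SP_DBZ and 0.401 and 1.43 CPM in EP, and Cck at 10.8 and 21.3 CPM in SP_DBZ and 2.73 and 1.81 CPM in EP. These 3 differed less between the SP_DBZ replicates than Neurog3 did. Cpe, a prohormone processing enzyme used more widely, was the most abundant uncalled member at 18.96 and 24.00 CPM in SP_DBZ and 40.1 and 22.5 CPM in EP, and Pcsk2 had no counts in any of the 4 libraries. Hormone genes called numbered 11 without EP replicate 1, 13 without EP replicate 2 and 12 without SP_DBZ replicate 2.

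**Figure D3:**
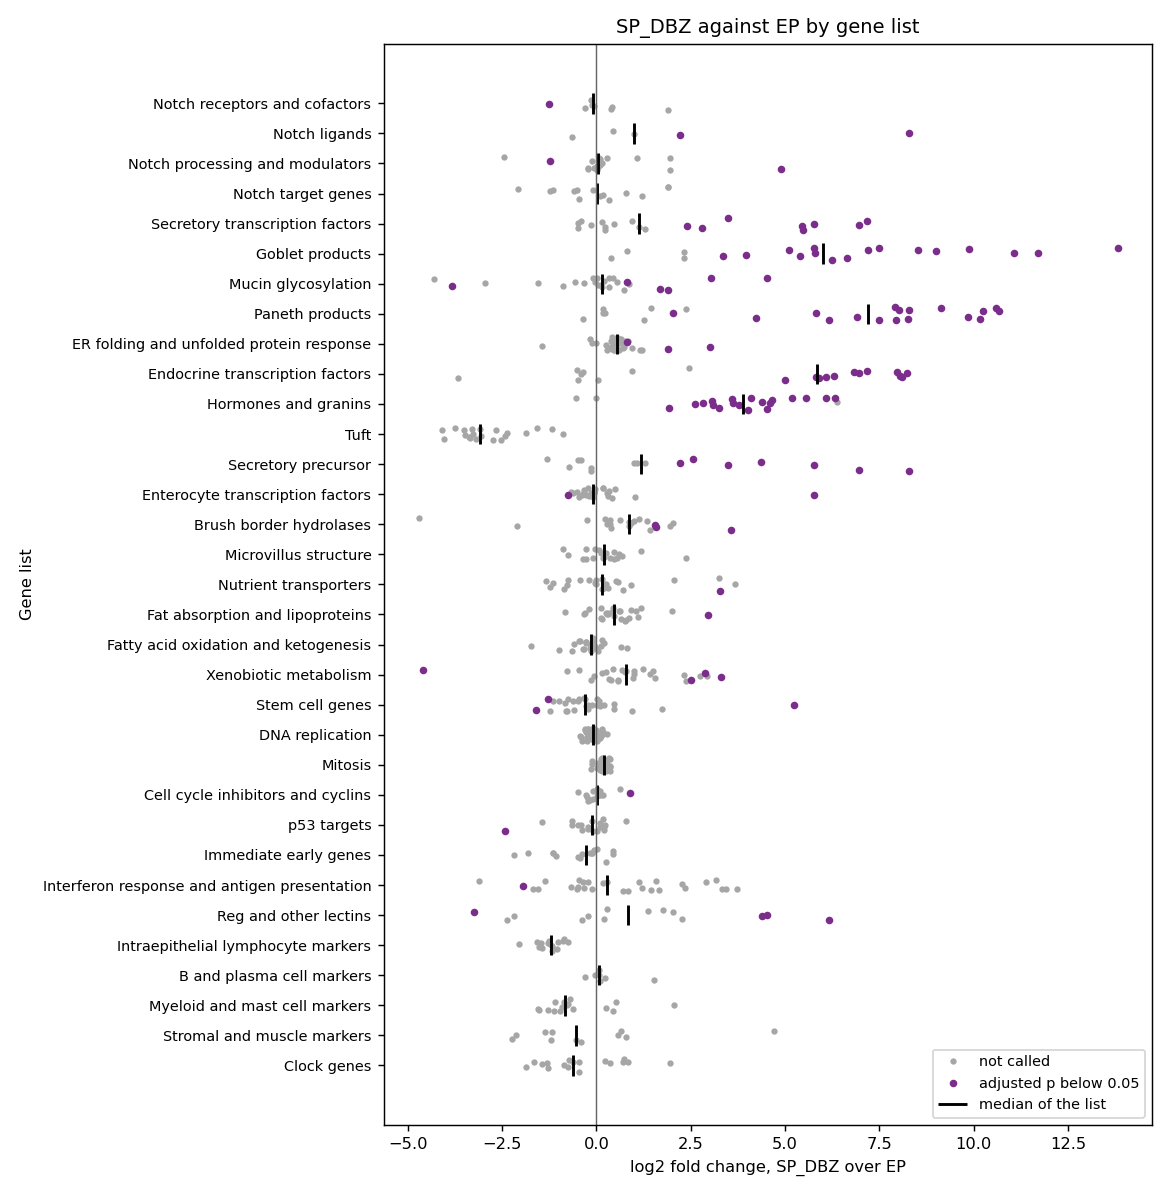
Fitted log2 fold change of SP_DBZ over EP for every tested member of 33 gene lists, with called genes in purple, uncalled genes in grey and the list median as a black bar. Goblet, Paneth, endocrine and hormone lists lie to the right, the tuft list lies wholly to the left without a called gene, and DNA replication and mitosis stay close to 0.

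Tuft cells, chemosensory cells of the epithelium, were the secretory type whose genes lay the other way. All 21 tested tuft genes had a negative log2 fold change (median -3.10), and for 20 of them both SP_DBZ libraries lay below both EP libraries. Over all tested genes, 41.9% lacked overlap in either direction. None of the 21 was called by edgeR, 18 had an unadjusted p below 0.05, and DESeq2 called 6 lower. Dclk1, a kinase used as a tuft marker, had 43.00 and 30.3 CPM in SP_DBZ and 445 and 221 CPM in EP (log2 fold change -3.18 ± 1.01 SE, adjusted p = 0.12). Trpm5, the taste-signalling channel, had 19.4 and 25.2 CPM in SP_DBZ and 299 and 130.3 CPM in EP (log2 fold change -3.27 ± 1.10 SE, adjusted p = 0.16). Pou2f3, the tuft master factor, had 10.6 and 13.97 CPM in SP_DBZ and 95.97 and 44.5 CPM in EP. In other groups that enter the shared spread, on the scale of all 25 libraries, Dclk1 had 13.1 and 131 CPM in SP_Rbpj and 186 and 952 CPM in enteroendocrine cells. With the spread taken from the 4 compared libraries alone, 18 of 21 tuft genes were called lower, and with the 6 unsorted crypt libraries 1 was. Tuft genes took 0.0329% and 0.0355% of the SP_DBZ libraries and 0.341% and 0.176% of the EP libraries.

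Markers of intraepithelial lymphocytes, T cells that sit within the epithelium, also lay lower in SP_DBZ. All 16 tested markers had both SP_DBZ libraries below both EP libraries, beside 41.9% of all tested genes without overlap in either direction. The markers had a median log2 fold change of -1.20, and 0 were called by edgeR or DESeq2 (2 lower at an unadjusted p below 0.05). Their summed level was 91.9 and 212 CPM in SP_DBZ and 476 and 364 CPM in EP, and none of the defining markers was at 0: Cd3e, of the T cell receptor complex, had 4.39 and 9.95 CPM in SP_DBZ and 18.7 and 16.2 CPM in EP. Ptprc (CD45) had 10.95 and 21.5 CPM in SP_DBZ and 86.8 and 47.9 CPM in EP. Some tuft genes, Ptpn6, Alox5 and Alox5ap among them, are also made by leukocytes; the part of lymphocytes in the tuft values was not tested. Fibroblast and muscle markers were low in all 4 libraries, at 13.5 and 20.9 CPM summed over 14 genes in SP_DBZ and 20.04 and 27.5 CPM in EP.

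**Figure D4:**
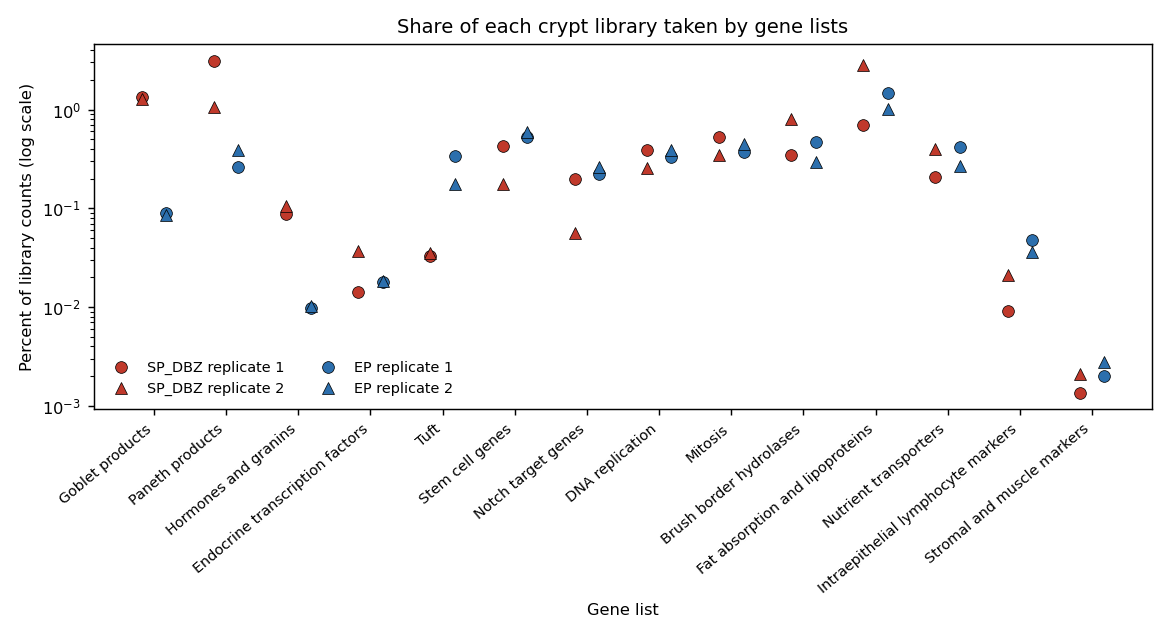
Percent of each library's counts taken by 14 gene lists, on a log axis, in the SP_DBZ libraries (red) and the EP libraries (blue), with circles for replicate 1 and triangles for replicate 2. Goblet, Paneth and hormone genes take more of both SP_DBZ libraries, tuft genes more of both EP libraries, and fat absorption genes range from 0.692% to 2.84% within SP_DBZ.

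Enterocyte genes were not broadly lower in SP_DBZ. Of 27 genes in the list of enterocyte transcription factors 1 rose, Atoh1, which the list holds although it is a secretory factor and the gene deleted in EP, and 1 fell: Ppargc1b, a coactivator of mitochondrial genes, with 49.5 and 40.5 CPM in SP_DBZ, against 77.2 and 74.3 CPM in EP (log2 fold change -0.75 ± 0.18 SE, adjusted p = 0.025), a call lost when any 1 of the 4 libraries was left out (-0.85 to -0.61). Brush border hydrolases had 3 of 21 called higher and 0 lower. Naaladl1, a peptidase, had 173 and 366 CPM in SP_DBZ, against 95.1 and 89.9 CPM in EP. Enpep, the aminopeptidase A, had 499 and 1038 CPM in SP_DBZ, against 293 and 219 CPM in EP. Enpp7, which digests sphingomyelin, had 26.2 and 102 CPM in SP_DBZ, against 5.85 and 4.96 CPM in EP. All 3 were highest in SP_DBZ replicate 2. Without it the count was 0 (Naaladl1 0.90, Enpep 0.97, Enpp7 2.28), and it was 0 without either EP library and 5 without SP_DBZ replicate 1. Sis, the sucrase, overlapped between groups at 347 and 699 CPM in SP_DBZ and 827 and 412 CPM in EP. The structural genes of microvilli gave 0 calls of 20 by edgeR, with 2 at an unadjusted p below 0.05, and DESeq2 called 1 higher; Vil1 (villin), whose promoter drives the Cre, had 597 and 1180.0 CPM in SP_DBZ and 739 and 554 CPM in EP.

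Absorption and metabolism genes gave few calls as well. SP_DBZ replicate 1 was the higher one for 3 of 25 transporters, 2 of 26 fat absorption genes, 5 of 29 xenobiotic genes and 9 of 25 oxidation genes. Of 25 nutrient transporters 1 rose, the phosphate transporter Slc34a2, with 42.5 and 126 CPM in SP_DBZ, against 11.5 and 5.88 CPM in EP (log2 fold change 3.27 ± 0.52 SE, adjusted p = 0.00071). The glucose transporter Slc5a1 was not called at 592 and 1354 CPM in SP_DBZ and 1689 and 962 CPM in EP. Of 26 fat absorption genes 1 rose, the cholesterol exporter Abca1, with 5.21 and 11.01 CPM in SP_DBZ, against 0.681 and 1.37 CPM in EP, and it lost its call without SP_DBZ replicate 2 (2.32) or without either EP library (2.60 and 3.60). The apolipoprotein Apoa1 had 1000.1 and 5517 CPM in SP_DBZ and 2335 and 1435 CPM in EP, so both EP values lay between the SP_DBZ ones. Without SP_DBZ replicate 1 the called counts were 5 fat absorption genes and 4 transporters, all higher. Genes of fatty acid oxidation and ketone synthesis gave 0 calls of 25 by edgeR and by DESeq2, with 3 lower at an unadjusted p below 0.05. Xenobiotic metabolism had 3 of 29 higher and 1 lower: the carboxylesterase Ces1f had 48.9 and 88.7 CPM in SP_DBZ, against 4.09 and 9.88 CPM in EP (log2 fold change 3.29 ± 0.50 SE, adjusted p = 0.00043). Cyp1a1, the aryl hydrocarbon receptor target, had 0.676 and 0 CPM in SP_DBZ, against 9.10 and 8.23 CPM in EP (log2 fold change -4.58 ± 1.14 SE, adjusted p = 0.038). Aldh1a1 and Gsta4 were the other 2. Ces1f kept its call whichever library was left out (2.80 to 4.12), while Aldh1a1 (1.55), Gsta4 (1.41) and Cyp1a1 (-3.67) lost theirs without SP_DBZ replicate 2, and also without either EP library (2.68 and 3.21 for Aldh1a1, 2.13 and 3.16 for Gsta4, -4.49 and -4.62 for Cyp1a1).

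Of 30 stem cell genes, 1 rose and 2 fell. Ascl2, the master factor of Lgr5 stem cells, had 26.7 and 12.8 CPM in SP_DBZ, against 58.4 and 62.6 CPM in EP (log2 fold change -1.61 ± 0.41 SE, adjusted p = 0.044). Cd44, a Wnt target of the crypt base, had 49.2 and 39.5 CPM in SP_DBZ, against 118 and 96.4 CPM in EP (log2 fold change -1.27 ± 0.25 SE, adjusted p = 0.0066). Tnfrsf19 (Troy), another Wnt target of stem cells, went the other way, with 6.83 and 1.83 CPM in SP_DBZ, against 0.200 and 0.0318 CPM in EP (log2 fold change 5.24 ± 0.79 SE, adjusted p = 0.00041). Tnfrsf19 ranged over 4.05 to 6.85 with 1 library left out and kept its call, and lost it with the 4 compared libraries alone (5.26, adjusted p = 0.057). Lgr5, the Wnt co-receptor that defines these cells, overlapped at 23.6 and 6.90 CPM in SP_DBZ and 10.2 and 16.3 CPM in EP. The number called lower was 5 without SP_DBZ replicate 1, 0 without SP_DBZ replicate 2, 0 without EP replicate 1 and 1 without EP replicate 2. Ascl2 lost its call with DESeq2 size factors (-1.59, adjusted p = 0.050), with the 4 compared libraries alone (-1.60), without SP_DBZ replicate 2 (-1.18), without EP replicate 1 (-1.64) and without EP replicate 2 (-1.53), and Cd44 without SP_DBZ replicate 2 (-1.12) or EP replicate 1 (-1.09).

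No gene of DNA replication or mitosis was called. Of 40 DNA replication genes 0 were called by edgeR or DESeq2 and 0 had an unadjusted p below 0.05, with log2 fold changes between -0.43 and 0.27, and the same counts held for 35 mitosis genes (-0.15 to 0.36). Mcm6, of the replicative helicase, had 347 and 184 CPM in SP_DBZ and 307 and 319.7 CPM in EP. Top2a, the mitotic topoisomerase, had 401 and 275 CPM in SP_DBZ and 292 and 330.0 CPM in EP. SP_DBZ replicate 1 was at or above the EP level in both and replicate 2 below it. Among 16 cyclins and inhibitors, Ccnd2 alone was called, higher at 722 and 838 CPM in SP_DBZ, against 374 and 460.4 CPM in EP (log2 fold change 0.90 ± 0.23 SE, adjusted p = 0.039), and only with every library or without SP_DBZ replicate 1; it stood at 0.79 without SP_DBZ replicate 2 and at 0.79 and 1.10 without EP replicates 1 and 2.

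Stress, defence and time-of-day genes showed few calls. Of 19 p53 targets only the kinase Plk2 was called, lower at 4.19 and 4.63 CPM in SP_DBZ, against 29.3 and 17.7 CPM in EP, and it lost its call when any library was left out (-2.69 to -1.97). Immediate early genes gave 0 of 16 (4 lower at an unadjusted p below 0.05, 0 by DESeq2), and clock genes 0 of 17 (3 higher and 3 lower at that p, 1 lower by DESeq2). Of 29 interferon and antigen presentation genes 0 were called higher and 1 lower: Oas1a, a sensor of viral RNA, with 11.1 and 6.90 CPM in SP_DBZ, against 39.2 and 30.8 CPM in EP (log2 fold change -1.96 ± 0.34 SE, adjusted p = 0.0017), a call lost without SP_DBZ replicate 2 (-1.66). The MHC class II genes lay the other way without passing: Cd74, the invariant chain, had 1772 and 2575 CPM in SP_DBZ and 209 and 372 CPM in EP (log2 fold change 2.90 ± 0.99 SE, adjusted p = 0.16). H2-Aa had 313 and 553 CPM in SP_DBZ and 25.9 and 39.7 CPM in EP (adjusted p = 0.072). With the spread of the 4 libraries alone, 8 members were called higher, Cd74 among them, and DESeq2 also called 8. Markers of other cells that present antigen were as follows, and their part in these values was not tested. The 16 tested myeloid and mast cell markers summed to 63.5 and 53.9 CPM in SP_DBZ and 115 and 97.3 CPM in EP, with 4 of 16 at a positive log2 fold change and 0 called. The 8 B and plasma cell markers summed to 33.6 and 46.4 CPM in SP_DBZ and 19.999 and 56.8 CPM in EP. Of the 7 tested, 5 had a positive log2 fold change, 0 were called and 1 was higher at an unadjusted p below 0.05. Of the defining markers, Emr1 (F4/80) was at 0 in SP_DBZ replicate 2, and Cd79a was above 0 in all 4 libraries.

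The genes below, beside those already given, had the largest decreases among called genes with a proper name. The ranking took genes with a mean of at least 20 CPM in EP and no overlap. Gene models without a proper name, such as AA467197 (log2 fold change -3.25), were left out of it. Pla2g4c, a cytosolic phospholipase A2 (chromosome 7, 13311507 to 13360674), fell to 22.4 and 2.36 CPM in SP_DBZ, against 5566 and 2926 CPM in EP (log2 fold change -8.41 ± 2.01 SE, adjusted p = 0.028). Fn1, fibronectin, had 0.439 and 0.528 CPM in SP_DBZ, against 63.02 and 28.9 CPM in EP. Gkn3, a gastrokine made by stem cells of the proximal small intestine in mice, had 1.83 and 0.650 CPM in SP_DBZ, against 34.8 and 77.7 CPM in EP (log2 fold change -5.48 ± 0.68 SE, adjusted p = 7.6e-05). Both EP libraries were far above both SP_DBZ libraries in each of these. Matk, an inhibitor of Src kinases that tuft cells also make, had 6.73 and 6.38 CPM in SP_DBZ, against 145 and 68.7 CPM in EP. Ada, adenosine deaminase, had 47.5 and 57.4 CPM in SP_DBZ, against 381 and 241 CPM in EP. Capn13, a calpain protease, had 66.6 and 32.2 CPM in SP_DBZ, against 450.0 and 198 CPM in EP. Car2, a carbonic anhydrase, had 6.39 and 12.8 CPM in SP_DBZ, against 67.6 and 41.1 CPM in EP. Of these 7, Gkn3 alone kept its call whichever library was left out; the calls of Pla2g4c (-10.76 to -7.56) and Fn1 (-6.97 to -5.85) were lost in all 4 cases. Matk and Ada lost theirs without either SP_DBZ library or without EP replicate 1 (Matk -4.01 to -3.36, Ada -2.71 to -2.17), Capn13 without SP_DBZ replicate 2 or EP replicate 1 (-2.28 and -1.98), and Car2 without SP_DBZ replicate 1 or EP replicate 1 (-2.02 and -2.06).

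**Figure D5:**
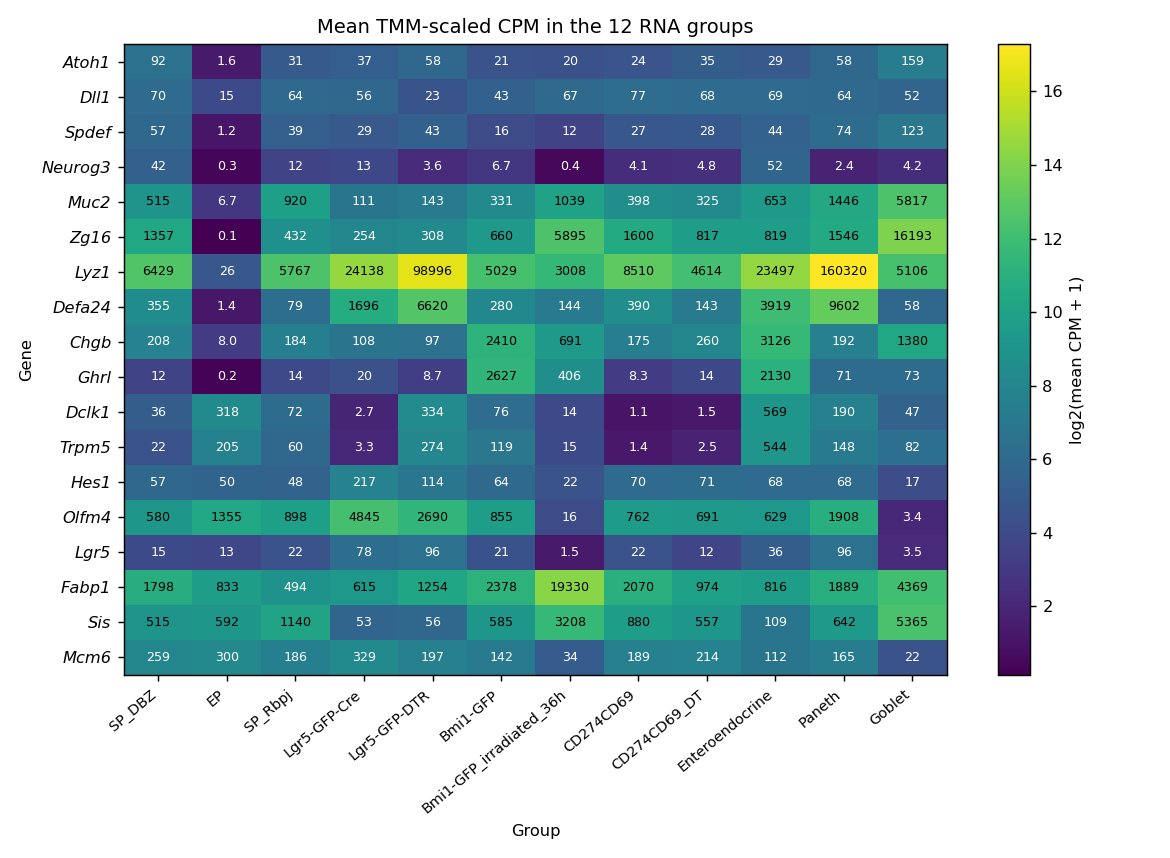
Mean TMM-scaled CPM of 18 genes in the 12 RNA groups, printed in each cell and coloured by log2(mean CPM + 1), with SP_DBZ and EP in the first columns. Atoh1, Spdef, Zg16 and Lyz1 are lowest in EP of all groups, while Mcm6 stands at 259 CPM in SP_DBZ and 300 CPM in EP on this scale, set over all 25 libraries.

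The same genes were set beside an Rbpj-deleted group and a sorted stem cell group of the series. SP_Rbpj crypts came from Rbpj F/F; Villin-CRE mice given 2 mg of tamoxifen 2 times a day for 2 days and sacrificed on day 3, and were sequenced with another kit (TruSeq); Lgr5-GFP-Cre cells were sorted stem cells. These comparisons share their samples with the one above and are given as values side by side. Atoh1 was higher in SP_DBZ than in SP_Rbpj by 1.54 ± 0.32 on the log2 scale (SE, adjusted p = 0.0018) and higher than in Lgr5-GFP-Cre cells by 1.28 ± 0.28 (adjusted p = 0.0019), while EP lay below Lgr5-GFP-Cre cells, at -4.49 ± 0.37 (adjusted p = 2.3e-07). Of all tested genes, 24.7%, 36.7% and 39.4% were called in these 3 comparisons. Dll1 was called in EP against Lgr5-GFP-Cre (-1.90, adjusted p = 0.00011) but not in SP_DBZ against Lgr5-GFP-Cre (0.30, adjusted p = 0.41) or against SP_Rbpj (0.06, adjusted p = 0.91). Hes1, which did not differ between SP_DBZ and EP beyond the spread, was lower than in Lgr5-GFP-Cre cells in both SP_DBZ (-1.93, adjusted p = 0.00089) and EP (-2.10, adjusted p = 0.00046). Notch1 was lower in SP_DBZ than in SP_Rbpj (-1.58, adjusted p = 0.0013) and than in Lgr5-GFP-Cre cells (-0.89, adjusted p = 0.021), and was not called in EP against Lgr5-GFP-Cre (0.35, adjusted p = 0.33). The sort and the kit change with these groups, and their part was not tested.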

How the data were processed

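RNA of mouse crypt cells was sequenced as 75 bp single-end reads, per the labels. The authors deposited raw counts for 24062 gene symbols in 25 libraries, and 0 columns of that table lacked a sample. Bowtie2, TopHat2 2.0.6, DESeq2 and the build mm10 are named in the submitters' processing notes. Neither the counter nor the annotation or strandedness is given in the sources used here, so overlapping genes cannot be separated. Other files were not used here.

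The test was edgeR 4.0.16 in R 4.3.3 (filterByExpr with minimum count 10 and minimum total 15, TMM, quasi-likelihood F test, Benjamini-Hochberg over 14837 genes). The fit held 24 libraries of 11 groups, which share the spread, and used no replicate block. The SE is the log2 fold change divided by the square root of F. The fit was also run on counts simulated with its own spread, shared by all groups. That run checks the code and cannot check calls where the spread differs between groups. DESeq2 1.42.0 was an alternative. A ratio with 1 to 3 counts in EP has an exact (Clopper-Pearson) 95% interval. A fold against 0 counts uses a floor of 3 counts over the group.

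The 35 gene lists, the members and the tests were chosen with earlier results of these data known. The rule for named genes took Atoh1, the Notch lists, the 10 largest changes per direction with a mean of 20 CPM or more and no overlap, and, per list, up to 4 called members per direction and the most abundant uncalled member. Gene models without a proper name, such as Gm14851 and AA467197, were left out of the 10 largest changes. Other genes were added after their values were seen. Some genes under the rule are not reported here. The labels call the replicates biological without naming animals. The p-values thus rest on the spread between samples of a group, shared over the 24 libraries of 11 groups in the fit. Whether replicate numbers pair the samples is not given. The correlation of deviations over genes was -0.03, which cannot settle it with 2 libraries a group. Of 138 genes under the rule, 134 matched RefSeq of GRCm38.p6 by symbol, the source of coordinates and promoter sequences.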

Additional observations from a re-analysis of the deposited data

How the results depend on the processing

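With 2 libraries a group, calls depend on which libraries set the spread. Against 365 calls (280 higher, 85 lower, 345 past 1 on the log2 scale), DESeq2's Wald test gave 657 (445 higher, 212 lower, 583 past 1), no filter on low counts gave 159 lower, and the 4 compared libraries alone gave 316, with 181 higher and 135 lower. That last setting kept 201 of the 365 calls and moved the share of calls that were higher to 57.3%, against 76.7%; the cause was not tested. Leaving out 1 library in turn gave 141 to 442 calls, 133 to 358 higher, 8 to 84 lower, 140 to 416 past 1 and 66 to 121 on the lists, against 103. The lowest counts came without EP replicate 1 (133 higher, 8 lower) and without SP_DBZ replicate 2 (188 calls, 171 higher and 17 lower), with 94.3% and 91.0% of calls higher; fewer libraries enter these fits. The 6 unsorted crypt libraries, an alternative chosen after seeing the data, gave 271 calls and kept 229. The SMART-Seq libraries alone gave 327 calls and kept 307. That setting ended the calls of Notch1, Lfng, Ppargc1b, Cyp1a1 and Ccnd2, among others. Other scalings gave 362 to 364 calls. Of the genes given in the text, they ended the calls of Lfng (all 3 scalings), Ascl2 (DESeq2 size factors) and Notch1 (secretory products left out of the scaling). The replicate numbers pair no animals in the labels; a replicate block gave 343 calls (324 shared with the fit without it) and, of the named genes, ended the call of Enpep alone. No gene given in the text changed sign in a setting where it was called in either fit. Uncalled genes did with 1 library left out, among them Nrarp (-0.79 to 2.04), Hes1 (-0.65 to 0.71), Lgr5 (-0.89 to 0.84), Apoa1 (-0.91 to 1.61) and Sis (-0.84 to 0.38). With the 4 compared libraries alone the calls of Dll1, Dll3, Dner, Capn13, Ccnd2, Duoxa2, Edem1, Enpep, Naaladl1, Ppargc1b, Abca1, Aldh1a1, Gsta4, Cyp1a1, Gpx2 and Igtp were also lost.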

Other observations

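The 365 calls included 262 genes on none of the lists, 187 higher and 75 lower in SP_DBZ. The genes named here were chosen from them after their values were seen, and no test of a group was made. Among those higher in SP_DBZ were further parts of the secretory pathway: Txndc5, a disulfide isomerase, had 507 and 767 CPM in SP_DBZ, against 122 and 154 CPM in EP (log2 fold change 2.21 ± 0.31 SE, adjusted p = 0.00023). Dnajc10, a reductase of the endoplasmic reticulum, had 168 and 244 CPM in SP_DBZ, against 58.1 and 64.4 CPM in EP. Qsox1, a sulfhydryl oxidase of the Golgi, had 122 and 155 CPM in SP_DBZ, against 42.1 and 50.3 CPM in EP. Qsox1 lost its call without SP_DBZ replicate 2 (log2 fold change 1.40) or EP replicate 1 (1.49). Wnt3, the Wnt ligand of Paneth cells, had 9.67 and 25.3 CPM in SP_DBZ, against 0.0802 and 0.318 CPM in EP (log2 fold change 6.34 ± 0.71 SE, adjusted p = 1.8e-05). Apol10a had 419 and 781 CPM in SP_DBZ, against 141 and 118 CPM in EP, and Igtp, a GTPase induced by interferon-gamma, 26.2 and 102 CPM in SP_DBZ, against 8.06 and 8.13 CPM in EP. Igtp lost its call without SP_DBZ replicate 2 (log2 fold change 1.69) or either EP library (3.02 and 3.04). Fabp6, the bile acid binding protein of ileal enterocytes, had 74.4 and 99.6 CPM in SP_DBZ, against 1.52 and 5.94 CPM in EP (log2 fold change 4.53 ± 0.65 SE, adjusted p = 0.00028).

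Genes known from stomach glands were among those lower in SP_DBZ. Gif, gastric intrinsic factor, gave 2 and 0 counts in SP_DBZ and 204 and 943 in EP (adjusted p = 0.00029), and Muc6, a gland mucin of stomach and duodenum, had 0 and 0.203 CPM in SP_DBZ, against 10.4 and 13.5 CPM in EP (log2 fold change -6.87 ± 1.66 SE, adjusted p = 0.03). Clu, clusterin, had 1.08 and 1.18 CPM in SP_DBZ, against 7.42 and 21.4 CPM in EP (log2 fold change -3.67 ± 0.53 SE, adjusted p = 0.00029), and Gpx2, the epithelial glutathione peroxidase, 708 and 926 CPM in SP_DBZ, against 1807 and 2036 CPM in EP. Both EP libraries were above both SP_DBZ libraries in each of these 4. The calls of Gif and Clu held whichever library was left out, while those of Muc6 (-10.86 to -5.78) and Gpx2 (-1.44 to -0.999) were lost in all 4 cases. The -10.86 for Muc6 was fitted against 0 counts in the remaining SP_DBZ library, so its size is not measured. Whether the groups were cut at the same distance from the stomach is not given in the labels, and its part in the values of these genes was not tested.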
